A study of Mus musculus with 24 samples.

Results

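The perilipins, the proteins that coat lipid droplets, were followed in mouse liver through their 5 genes, Plin1, Plin2, Plin3, Plin4 and Plin5. The members were all array probes whose target accession belongs to one of these genes, which gave 5 probes among 41174, 1 probe and 1 spot per gene. All 5 probes were well above background in both channels on each of the 24 arrays, so none was lost to the filter on dim probes, which kept 36648. Probes were matched to the genes by name and not by measurement, but the family was chosen with earlier results of these data known.

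Liver cells store surplus fat as triglyceride in droplets in the cytosol, and perilipins sit on the droplet surface, where they govern which lipases reach the fat. Plin2 (adipophilin) and Plin3 (TIP47) are made in most tissues, and Plin2 protein is degraded when it is not bound to a droplet. Plin5 is known from tissues that burn fat, such as heart, muscle and liver, where it holds droplets close to mitochondria and binds the triglyceride lipase ATGL and its activator. Plin1 and Plin4 are best known from fat cells, where Plin1 guards the large droplet against lipolysis and Plin4 coats small, newly formed ones.

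RNA of livers from male C57BL/6N mice was labelled with Cy5 and hybridized against a commercial mouse RNA labelled with Cy3, 1 liver sample per 2-colour Agilent array. E8wMB livers came from mice fed ethanol for 8 weeks with binges of 5 g of ethanol per kg given 2 times a week (n = 4), E8w1B livers from mice fed ethanol for 8 weeks with 1 such binge (n = 5), and E8w livers from mice fed ethanol for 8 weeks with no binge (n = 5). P8w livers came from mice pair-fed for 8 weeks, which receive control diet in the amount the ethanol-fed mice eat (n = 4). E10d1B livers came from mice fed ethanol for 10 days with 1 binge (n = 3), and P10d livers from mice pair-fed for 10 days (n = 3). The labels name the Cy3 RNA as a mix of assorted mouse tissues but list liver as its tissue, and they do not say that replicates were separate animals. The spread behind each p-value is thus that of the samples as deposited and may be technical. The labels do not give the time between the binge and sampling. In whole liver, a change in the number of cells of a type and a change in RNA per cell cannot be told apart.

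The median intensity of an array was 95.5 to 247 in Cy5 and 161.5 to 505 in Cy3, 70.5% to 86.7% of probes were well above background in Cy5, and the number of arrays limits the precision. The P8w, E8w and E8w1B arrays were scanned together, as were the P10d and E10d1B arrays, while the 4 E8wMB arrays had a scan of their own. Between E8wMB and every other group, and between P8w and P10d, scan and group therefore cannot be told apart. The reference channel, which should be alike on all arrays, correlated over probes at a median r of 0.982 within the scan of the first set and 0.914 between that scan and the scan of the E8wMB arrays. Of 8 hepatocyte marker genes, 7 had a named probe, and all 7 were well above background on every array, with albumin between 101001 and 188749 intensity units.

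The promoters of the 4 genes that were higher in E8w1B than in P8w livers are shown because these genes moved together, 3 of them from neighbouring places on chromosome 17. Plin4 and Plin5 are next to each other there, with 0 annotated genes between them, and Plin3 lies 9 genes beyond Plin5. Each window is RefSeq sequence of the build GRCm38.p6, covers 250 bases before to 50 bases after a gene start, and is written along the gene's own strand, which is the minus strand for all. Capitals mark matches, on either strand, to a motif. The motifs searched were AGGTCA, the half-site of nuclear receptors such as the PPARs, and CACGTG, an E-box. The others were TATAA of the TATA box type, the CCAAT box and the GC box, spelled GGGCGG.
Plin4, chr17:56109733-56110032: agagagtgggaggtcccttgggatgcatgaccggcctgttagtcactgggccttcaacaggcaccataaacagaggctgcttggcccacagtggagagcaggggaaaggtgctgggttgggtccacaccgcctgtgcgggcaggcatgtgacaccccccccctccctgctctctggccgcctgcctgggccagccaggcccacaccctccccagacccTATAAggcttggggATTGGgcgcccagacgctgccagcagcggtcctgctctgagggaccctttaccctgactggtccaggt
Plin5, chr17:56117499-56117798: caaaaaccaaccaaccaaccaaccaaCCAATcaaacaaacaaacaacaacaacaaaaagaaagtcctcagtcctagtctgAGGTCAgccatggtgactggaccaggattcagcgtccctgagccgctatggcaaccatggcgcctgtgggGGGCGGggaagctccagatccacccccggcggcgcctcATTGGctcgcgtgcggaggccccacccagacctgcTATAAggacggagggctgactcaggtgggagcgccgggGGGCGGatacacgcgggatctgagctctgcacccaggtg
Plin2, chr4:86670010-86670309: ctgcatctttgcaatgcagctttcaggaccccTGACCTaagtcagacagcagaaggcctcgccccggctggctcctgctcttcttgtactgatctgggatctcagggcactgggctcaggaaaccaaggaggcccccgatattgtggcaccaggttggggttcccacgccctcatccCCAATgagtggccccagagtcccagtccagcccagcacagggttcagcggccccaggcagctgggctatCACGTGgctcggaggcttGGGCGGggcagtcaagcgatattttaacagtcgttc
Plin3, chr17:56290462-56290761: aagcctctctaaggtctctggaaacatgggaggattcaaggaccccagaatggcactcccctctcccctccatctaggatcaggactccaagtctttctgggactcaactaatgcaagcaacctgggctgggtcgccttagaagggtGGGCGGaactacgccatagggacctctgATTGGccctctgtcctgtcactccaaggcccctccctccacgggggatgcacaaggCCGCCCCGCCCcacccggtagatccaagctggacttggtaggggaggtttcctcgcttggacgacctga

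The full PPAR element, which is the half-site repeated in the same direction after any 1 base and so contains it, was found in 0 of the 6 windows listed for the 5 genes and in 0.04% of the 32851 windows of this length in the table. A half-site stood in the windows of Plin2 and Plin5, against 16.3% of all windows. The E-box was found in Plin2, with its first base 4 bases before the start, and in 7.15% of all windows. TATAA stood 32 bases before the start of Plin4 and 27 bases before that of Plin5, and was held by 24.9% of all windows. CCAAT was held by all 4 windows shown and 37.4% of all windows, and GGGCGG by those of Plin2, Plin3 and Plin5 and 35.7% of all windows. Plin5 has another listed start, whose window is not shown. That window held 2 GC boxes and 1 half-site but neither TATAA nor CCAAT. In Plin3, 2 overlapping GC boxes make 1 run of capitals. The window of Plin1 held none of these letters. These are matches of letters only.

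After 8 weeks of ethanol and 1 binge, Plin2, Plin3, Plin4 and Plin5 were all higher than after 8 weeks of pair-feeding, and Plin4 moved most, by 6.10-fold. These 4 of the 5 genes were called higher in log2 Cy5/Cy3 (limma, adjusted p under 0.05 over 35633 probes), where 11.4% of probes were called and 4.97% were called higher. For the same 4 genes every E8w1B array measured lay above every P8w array, a pattern that 5.03% of probes showed. The median difference of the 5 genes was 1.20 on the log2 scale, against 0.02 for all probes. Plin1 was not called.

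**Figure D1:**
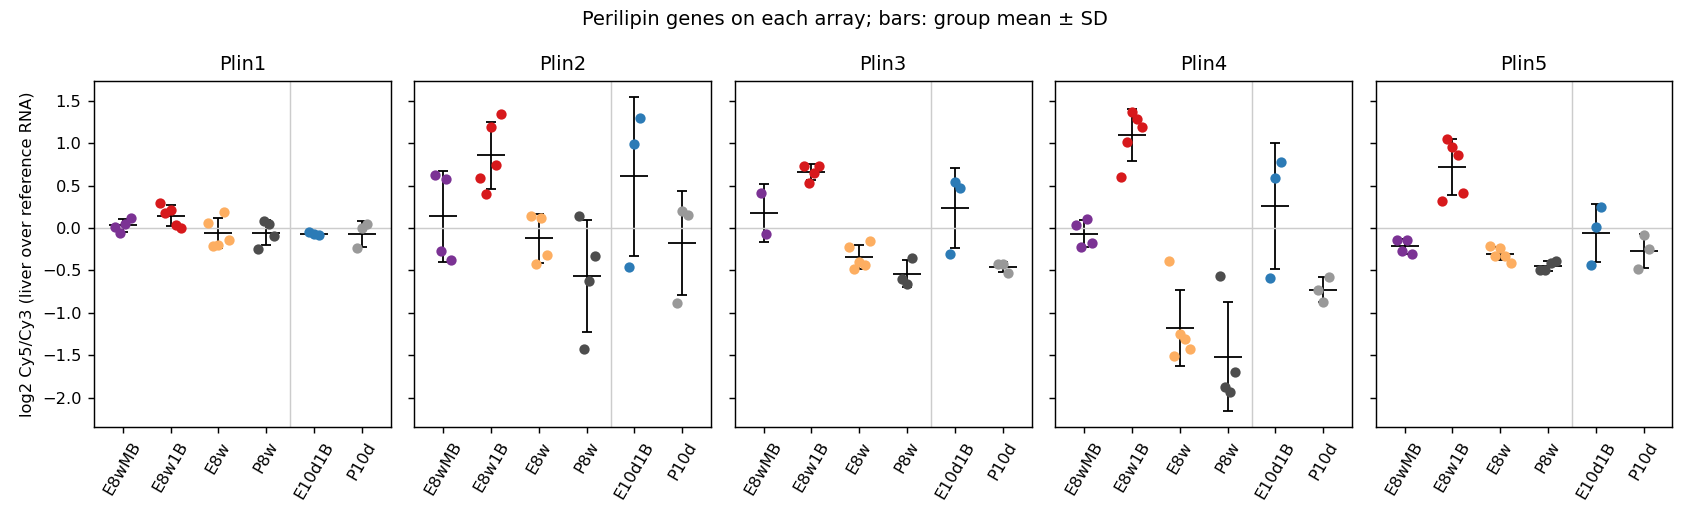
Log2 Cy5/Cy3 (liver over reference RNA) of the 5 perilipin genes on each array, by group, with each group's mean and SD as bars. In the E8w1B group Plin4 lies at 0.60 to 1.36, above the P8w range of -1.93 to -0.57, while Plin1 stays between -0.25 and 0.29 on all 24 arrays.

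Plin4, the coat of nascent droplets in fat cells, had log2 ratios of 0.60, 1.02, 1.36, 1.29 and 1.19 in E8w1B livers, against -0.57, -1.87, -1.93 and -1.69 in P8w livers. The groups were far apart, and P8w replicate 1 was the one pair-fed liver above the rest. The difference was 2.61 ± 0.27 (log2, SE; adjusted p = 9.7e-07), which ranked 20 from the top among 35633 probes. In the liver channel alone, Plin4 averaged 12.02 ± 0.50 in E8w1B livers and 9.49 ± 0.47 in P8w livers (log2 intensity, SD, n = 5 and 4), a difference of 2.52 (limma, adjusted p = 7.92e-06). The reference channel differed by -0.15 (adjusted p = 0.893).

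Plin5, the perilipin of fat-burning tissues, had log2 ratios of 0.31, 1.05, 0.96, 0.87 and 0.41 in E8w1B livers, against -0.49, -0.50, -0.41 and -0.39 in P8w livers. The P8w livers were nearly alike, with an SD of 0.06, while the E8w1B livers spread more, with an SD of 0.33. The difference was 1.17 ± 0.13 (log2, SE; adjusted p = 4.03e-06), or 2.25-fold. In Cy5 alone it was 0.80 (adjusted p = 0.00967), with overlapping groups, and the reference channel was 0.42 lower on the log2 scale in E8w1B arrays without being called (adjusted p = 0.636).

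Plin2, the general droplet coat of liver, had log2 ratios of 0.59, 0.41, 1.19, 0.74 and 1.35 in E8w1B livers, against 0.14, -1.43, -0.63 and -0.33 in P8w livers. The lowest E8w1B liver stood just above the highest P8w liver, again replicate 1. The difference was 1.42 ± 0.34 (log2, SE; adjusted p = 0.00642), or 2.67-fold. In Cy5 alone Plin2 was not called, at 1.10 with an adjusted p of 0.0779.

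Plin3 was measured on 4 E8w1B and 3 P8w arrays, because the scanner software marked its spot on E8w1B replicate 5 and P8w replicate 1 and those values were left out. Its log2 ratios were 0.74, 0.53, 0.64 and 0.73 in E8w1B livers, against -0.60, -0.66 and -0.36 in P8w livers. The measured values were close together in both groups, which did not overlap. With marked spots kept, the left-out values were -0.17 in P8w replicate 1 and 0.86 in E8w1B replicate 5. Each lay above the rest of its group, and the groups still did not overlap. The difference was 1.20 ± 0.16 (log2, SE; adjusted p = 4.85e-05), or 2.30-fold, and with the marked spots kept it was 1.15 (adjusted p = 1.06e-05).

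Plin1 differed by 0.20 ± 0.09 on the log2 scale between E8w1B and P8w livers (adjusted p = 0.193). Its spot was dim, with raw Cy5 intensities of 68 to 142.5 over a local background of 18 to 24, and the constant of 50 added in background correction shrinks differences of so dim a spot.

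Arrays of E8w1B, E8w and P8w shared slides, so the differences could be read within a slide. E8w1B exceeded P8w on 4 of 4 slides for Plin4, by 1.86 to 3.30, for Plin5, by 0.80 to 1.55, and for Plin2, by 0.60 to 1.84. Plin3 had both arrays measured on 2 slides and was 1.13 and 1.31 higher there. Leaving out any 1 array of the groups left the 4 calls in place, and in Cy5 alone 3 of the 5 genes were called, where 8.38% of probes were.

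**Figure D2:**
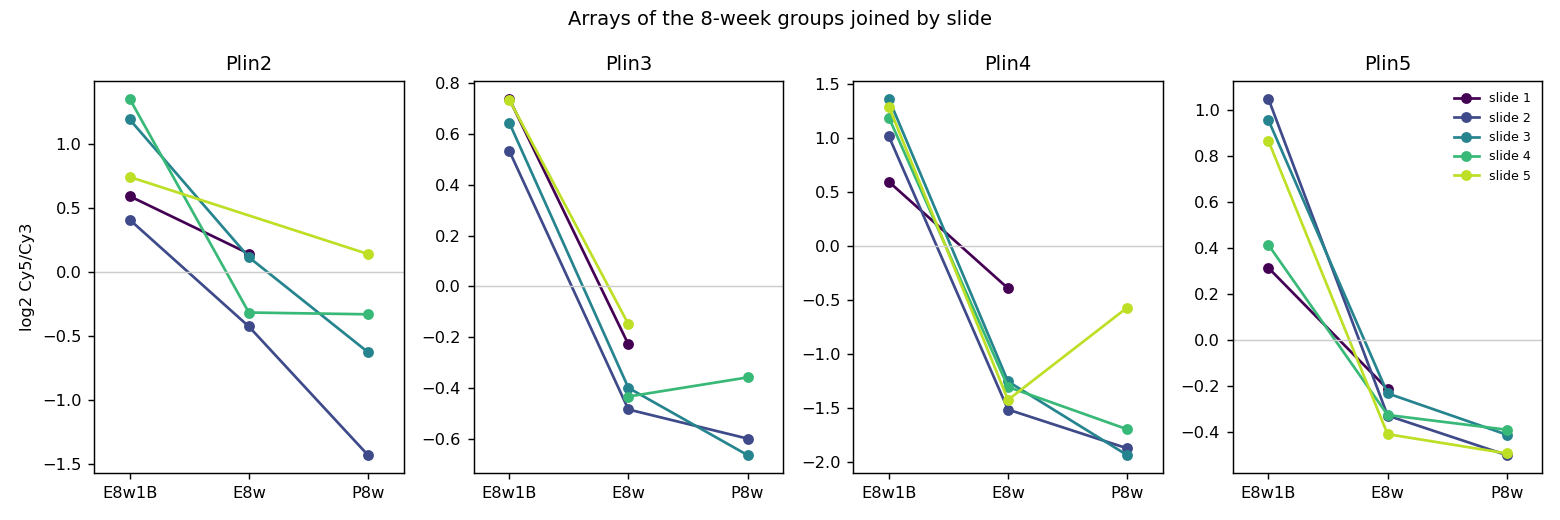
Log2 Cy5/Cy3 of Plin2, Plin3, Plin4 and Plin5 in E8w1B, E8w and P8w livers, with the arrays of 1 slide joined by a line that passes over arrays with no value. Every line with an E8w1B value is highest there, while between E8w and P8w the Plin4 ratio is higher in E8w on 3 of 4 slides.

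Set against ethanol feeding alone, ethanol feeding with 1 binge gave higher Plin3, Plin4 and Plin5. These 3 of the 5 genes were called higher in E8w1B than in E8w livers, where 11.5% of probes were called and 5.26% called higher. In Cy5 alone the same 3 were called, where 6.01% of probes were. Plin4 log2 ratios, at 0.60 to 1.36 in E8w1B livers as given above, were -0.39, -1.51, -1.25, -1.30 and -1.42 in E8w livers, so the groups did not overlap, and the difference was 2.27 ± 0.25 (log2, SE; adjusted p = 2.45e-06). Plin5 lay at 0.31 to 1.05 in E8w1B livers, against -0.21, -0.33, -0.23, -0.33 and -0.41 in E8w livers, and differed by 1.02 ± 0.13 (adjusted p = 8.61e-06). Plin3 lay at 0.53 to 0.74 in E8w1B livers, against -0.23, -0.48, -0.40, -0.43 and -0.15 in E8w livers, and differed by 1.00 ± 0.14 (adjusted p = 7.62e-05).

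Plin2 is the member at the edge of the threshold here. Its log2 ratios were 0.41 to 1.35 in E8w1B livers, against 0.14, -0.43, 0.11 and -0.32 on the 4 E8w arrays measured. As for Plin3, Plin4 and Plin5, every E8w1B value lay above every E8w value, which 4.43% of probes showed. The difference was 0.98 ± 0.34 (log2, SE; limma, adjusted p = 0.0636). The adjusted p was 0.0399 with marked spots kept, 0.0306 with slide as a fixed block, 0.122 with the replicate block and 0.325 in Cy5 alone. With 1 array left out, Plin2 stayed uncalled in 9 of 10 fits, with an adjusted p of up to 0.171. It was called only without E8w1B replicate 2 (adjusted p = 0.0496). Plin1 differed by 0.21 (adjusted p = 0.144), and by 0.27 (adjusted p = 0.0477) without E8w replicate 4. In 9 of its 10 fits with 1 array left out it stayed uncalled, with an adjusted p of up to 0.322. Within slides Plin4 and Plin5 were higher in E8w1B on 5 of 5 slides, and Plin2 and Plin3 on 4 of 4.

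Ethanol for 8 weeks with no binge left no perilipin gene called against pair-feeding. The count was 0 of 5 in limma, with 0 at an unadjusted p under 0.05, both in the ratio and in Cy5 alone, and only 0.118% of all probes were called in the ratio and 0.0507% in Cy5. The estimates, E8w minus P8w, were 0.44 for Plin2 (95% interval -0.29 to 1.17), 0.34 for Plin4 (-0.21 to 0.89), 0.20 for Plin3 (-0.12 to 0.52), 0.15 for Plin5 (-0.13 to 0.43) and -0.01 for Plin1 (-0.20 to 0.18) on the log2 scale. On shared slides Plin4 was higher in E8w on 3 of 4 in both measures. Plin5 was higher on 4 of 4 slides in the ratio and on 2 of 4 in Cy5, where its group difference was -0.16, the opposite sign. In each group 1 liver stood above the others for Plin4, replicate 1 in both.

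In the short model, 10 days of ethanol with 1 binge, Plin3 was the only member called higher than in P10d livers, where 4.91% of probes were called and 2.94% called higher. Plin3 had log2 ratios of -0.31, 0.55 and 0.47 in E10d1B livers, against -0.42, -0.43 and -0.53 in P10d livers, and differed by 0.69 ± 0.17 (log2, SE; adjusted p = 0.0214). The call was lost when any 1 of E10d1B replicates 2 and 3 or P10d replicates 1 to 3 was left out (adjusted p = 0.0603 to 0.155), with a difference of 0.66 to 0.71 without a P10d array and of 0.54 and 0.58 without an E10d1B array, and in Cy5 alone (0.77, adjusted p = 0.198), where 0 of the 5 genes and 1.18% of probes were called. Plin4 had log2 ratios of -0.59, 0.59 and 0.78 in E10d1B livers, against -0.73, -0.87 and -0.58 in P10d livers. It differed by 0.99 ± 0.33 (adjusted p = 0.0858).

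E10d1B replicate 1 was the lowest of its group for Plin2, Plin3, Plin4 and Plin5 alike, near the P10d livers. For Plin2 the E10d1B values were -0.46, 0.99 and 1.30, against -0.88, 0.20 and 0.16 in P10d livers, a difference of 0.78 ± 0.41 (log2, SE; adjusted p = 0.353). For Plin5 they were -0.44, 0.02 and 0.24, against -0.48, -0.08 and -0.25 in P10d livers, a difference of 0.21 (adjusted p = 0.591). Without E10d1B replicate 1, Plin4 differed by 1.41 (adjusted p = 0.00842). That array lies on a slide with no P10d array, and on the 2 slides that held both groups Plin4 was higher in E10d1B by 1.36 and 1.46 and Plin3 by 0.97 and 0.99.

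Whether the response to binge and ethanol differed with the length of feeding was tested as an interaction, the 8-week difference (E8w1B minus P8w) minus the 10-day difference (E10d1B minus P10d). Plin4 and Plin5 were called, 2 of the 5 genes, where 2.11% of probes were and 0.592% were called in the same direction. For Plin4 the 8-week difference was larger by 1.62 ± 0.42 (log2, SE; adjusted p = 0.0415), and for Plin5 by 0.96 ± 0.21 (adjusted p = 0.0146). The estimates for Plin2, Plin3 and Plin1 were 0.64, 0.51 and 0.20 (adjusted p = 0.662, 0.343 and 0.594).

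Both calls were lost without some single arrays and under some settings. The Plin4 call was lost when any 1 of 11 of the 15 arrays was left out. The largest drop came without E10d1B replicate 1, to 1.20 (adjusted p = 0.152). The other 10 were E8w1B replicates 2 to 5, P8w replicates 2 to 4 and P10d replicates 1 to 3 (adjusted p = 0.0517 to 0.0985), with estimates of 1.48 to 1.69. The Plin5 call was lost without E10d1B replicate 1 (0.77, adjusted p = 0.0637) and without P10d replicate 2 (0.86, adjusted p = 0.0631). With slide as a fixed block the values were 1.16 for Plin4 (adjusted p = 0.295) and 0.91 for Plin5 (adjusted p = 0.0749). In Cy5 alone they were 1.62 (adjusted p = 0.102) and 0.77 (adjusted p = 0.291), and 1.02% of probes were called. The 8-week and 10-day arrays were also scanned apart.

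In E8wMB livers, which had repeated binges, Plin3 and Plin4 were called higher than in P8w livers, 2 of the 5 genes, where 19.7% of probes were called and 6.31% called higher. Plin4 had log2 ratios of 0.04, -0.23, 0.10 and -0.18, above every P8w value, and differed by 1.45 ± 0.28 (log2, SE; adjusted p = 0.00114), or 2.73-fold. Plin3 rested on 2 E8wMB arrays, with log2 ratios of 0.42 and -0.07, since its spot was marked on replicates 3 and 4. It differed from P8w by 0.71 ± 0.19 (adjusted p = 0.013), and by 0.70 (adjusted p = 0.00306) with marked spots kept. Plin2 differed by 0.70 (adjusted p = 0.172), Plin5 by 0.23 (adjusted p = 0.265), with its groups apart, and Plin1 by 0.09 (adjusted p = 0.576). The E8wMB log2 ratios of Plin3, Plin4 and Plin5 all lay above the P8w values, as those of 10.2% of probes did. For Plin5 this held in the ratio only, since in Cy5 the difference was -0.17 with overlapping groups and in Cy3 it was -0.40 (adjusted p = 0.0262). Plin4 differed by 1.05 in Cy5 (limma, adjusted p = 0.00715) and by -0.48 in Cy3 (adjusted p = 0.0171). For Plin3 the differences were 1.68 in Cy5 (adjusted p = 9.42e-05) and 0.95 in Cy3 (adjusted p = 0.000865). Scan and group cannot be told apart here.

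Against E8w livers the same 2 members were called higher in E8wMB livers, where 25.6% of probes were called and 8.44% called higher. Plin4 differed by 1.11 ± 0.27 (log2, SE; adjusted p = 0.00403) and Plin3 by 0.51 ± 0.18 (adjusted p = 0.0373). The Plin3 call was lost without E8w replicate 2, 3 or 4 (adjusted p = 0.0614 to 0.073). Without loess, with arrays centred on their medians, Plin3 differed by 0.49 (adjusted p = 0.132). The estimates for Plin2, Plin5 and Plin1 were 0.26, 0.09 and 0.09, with adjusted p-values of 0.627, 0.679 and 0.487. In Cy5 alone 3 of the 5 genes were called higher in E8wMB, where 17163 of 34985 probes were called. These were Plin2, Plin3 and Plin4, by 1.70, 1.49 and 0.72 (limma, adjusted p = 0.00131, 0.000121 and 0.0444). The Plin4 groups overlapped there. In the reference channel Plin2 and Plin3 were called higher too, by 1.30 and 0.98 (adjusted p = 2.45e-06 and 0.000303). Plin4 was called lower in that channel, with a difference of -0.42 (adjusted p = 0.0266).

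Set against the single binge, Plin4 and Plin5 read lower on the E8wMB arrays, where scan and group cannot be told apart. These 2 of the 5 genes were called lower in E8wMB than in E8w1B livers, where 28.9% of probes were called and 18.5% called lower. Plin4 fell by 1.16 on the log2 scale (SE 0.27; adjusted p = 0.00243). Plin5 lay at -0.15, -0.27, -0.14 and -0.31 in E8wMB livers, below every E8w1B value, and fell by 0.93 on the log2 scale (SE 0.13; adjusted p = 3.82e-05). For these genes and Plin3 all E8wMB values lay below all E8w1B values, as for 13.6% of probes. Plin3 differed by -0.49 (adjusted p = 0.0506), and was called with marked spots kept (-0.46, adjusted p = 0.023), with no background correction (adjusted p = 0.0464) and with the stricter filter on background (adjusted p = 0.0487), while in Cy5 alone its difference was 0.38 (adjusted p = 0.268). Plin2 differed by -0.72 (adjusted p = 0.113) and Plin1 by -0.11 (adjusted p = 0.374). In Cy5 alone Plin4 and Plin5 were also called lower in E8wMB, with differences of -1.47 and -0.96 (adjusted p = 0.000212 and 0.000231), and 48.2% of probes were called. Plin1 was called lower there too, by a difference of -0.22 (adjusted p = 0.0463).

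For Plin2, as for Plin3, the ratio and the liver channel differed in sign between E8wMB and E8w1B. Its log2 ratios in E8wMB livers were 0.63, -0.27, 0.58 and -0.37. In Cy5 alone it averaged 14.56 ± 0.37 in E8wMB livers, 13.62 ± 0.61 in E8w1B livers and 12.52 ± 0.85 in P8w livers (log2 intensity, SD, n = 4, 5 and 4). There it was called higher than in P8w by 2.04 (adjusted p = 0.000241) and higher than in E8w1B by 0.93 (adjusted p = 0.0465), opposite in sign to the ratio. The reference channel differed between these scans too, and Plin2 in Cy3 averaged 14.59 on the E8wMB arrays, 13.22 on the other 8-week arrays and 12.12 on the 10-day arrays. Between E8wMB and P8w arrays all 5 perilipin genes were called in Cy3, Plin2 and Plin3 higher and Plin1, Plin4 and Plin5 lower, where 46.5% of probes were called. In Cy5, 47% of probes were called between these groups.

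**Figure D3:**
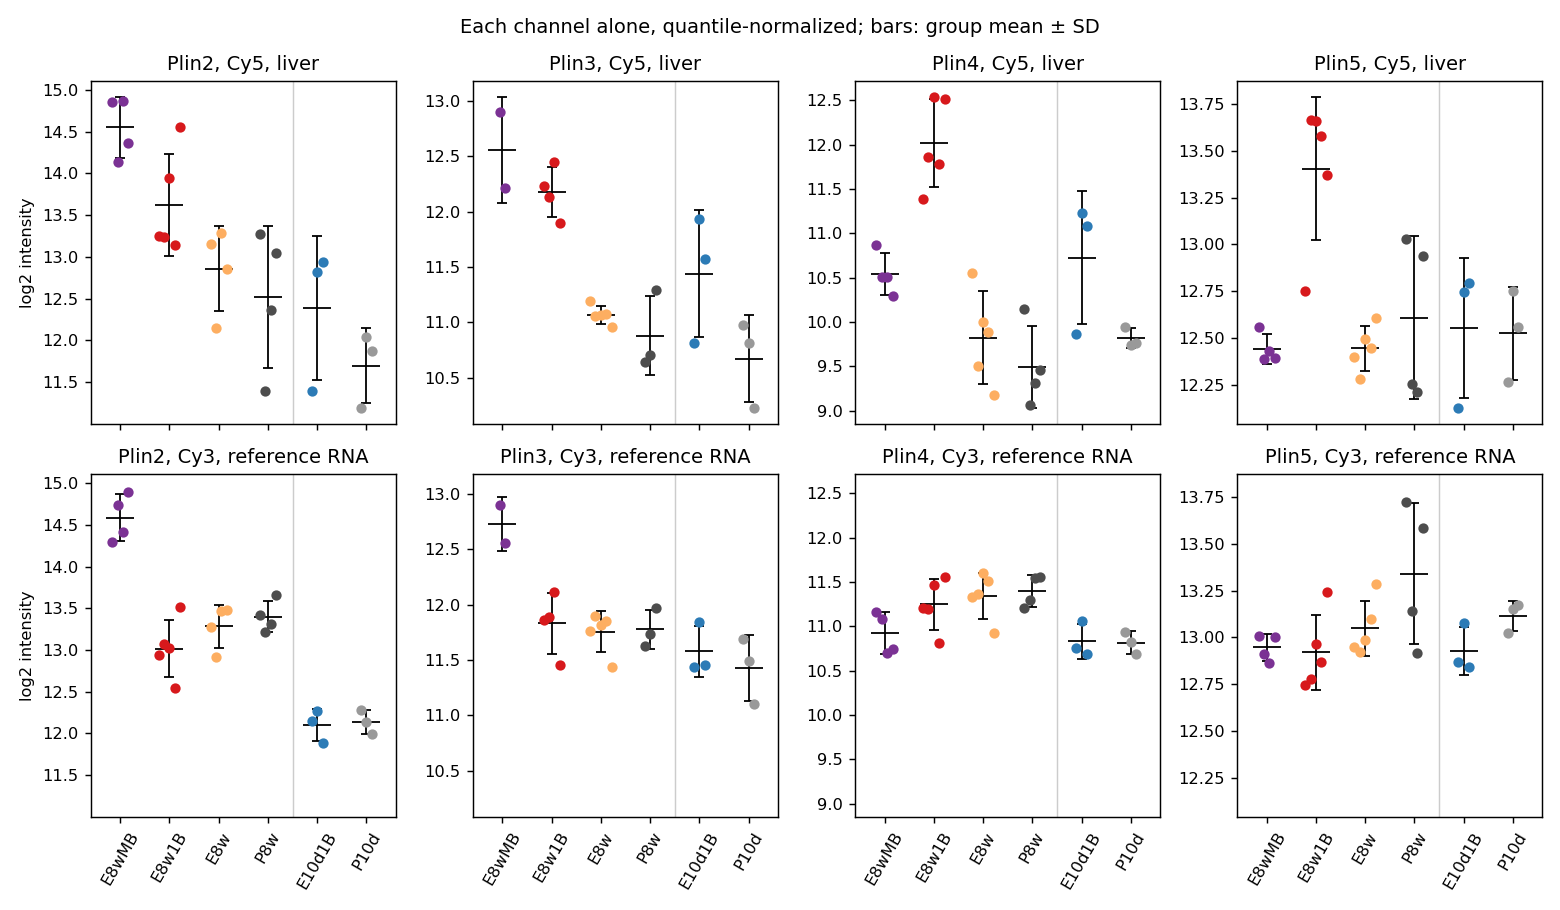
Log2 intensity of Plin2, Plin3, Plin4 and Plin5 in the liver channel (Cy5, upper row) and the reference channel (Cy3, lower row) on each array by group, with mean and SD, on 1 axis range per gene. Plin2 in the reference RNA averages 14.59 on the E8wMB arrays, 13.22 on the other 8-week arrays and 12.12 on the arrays of the 10-day groups, while Plin4 in Cy5 is highest in E8w1B.

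The 4 E8wMB livers also split among themselves. Replicates 1 and 3 had Plin2 log2 ratios of 0.63 and 0.58, and replicates 2 and 4 had -0.27 and -0.37, with 1 liver of each kind on both slides. Plin4 had 0.04 and 0.10 in replicates 1 and 3, and -0.23 and -0.18 in replicates 2 and 4. Over all probes the log2 ratios correlated at 0.629 between replicates 1 and 3 and at 0.77 between 2 and 4, against 0.42 to 0.571 for the other pairs of the group.

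The pair-fed groups did not differ in a called way. The count between P8w and P10d livers was 0 of 5 in limma, with 1 at an unadjusted p under 0.05, and 1.18% of all probes were called. In Cy5 alone 0 were called and 0 had an unadjusted p under 0.05, with 9.35% of probes called. In the ratio Plin4 had the largest difference, -0.79 ± 0.30 (log2, SE; adjusted p = 0.201), and in Cy5 alone Plin2 did, at 0.82 (adjusted p = 0.25), with Plin4 at -0.32. These groups differ in scan as well as in time, and Plin2 in the reference channel was higher by 1.26 on the P8w arrays (adjusted p = 0.000589), where 3.86% of probes were called in Cy3.

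**Figure D4:**
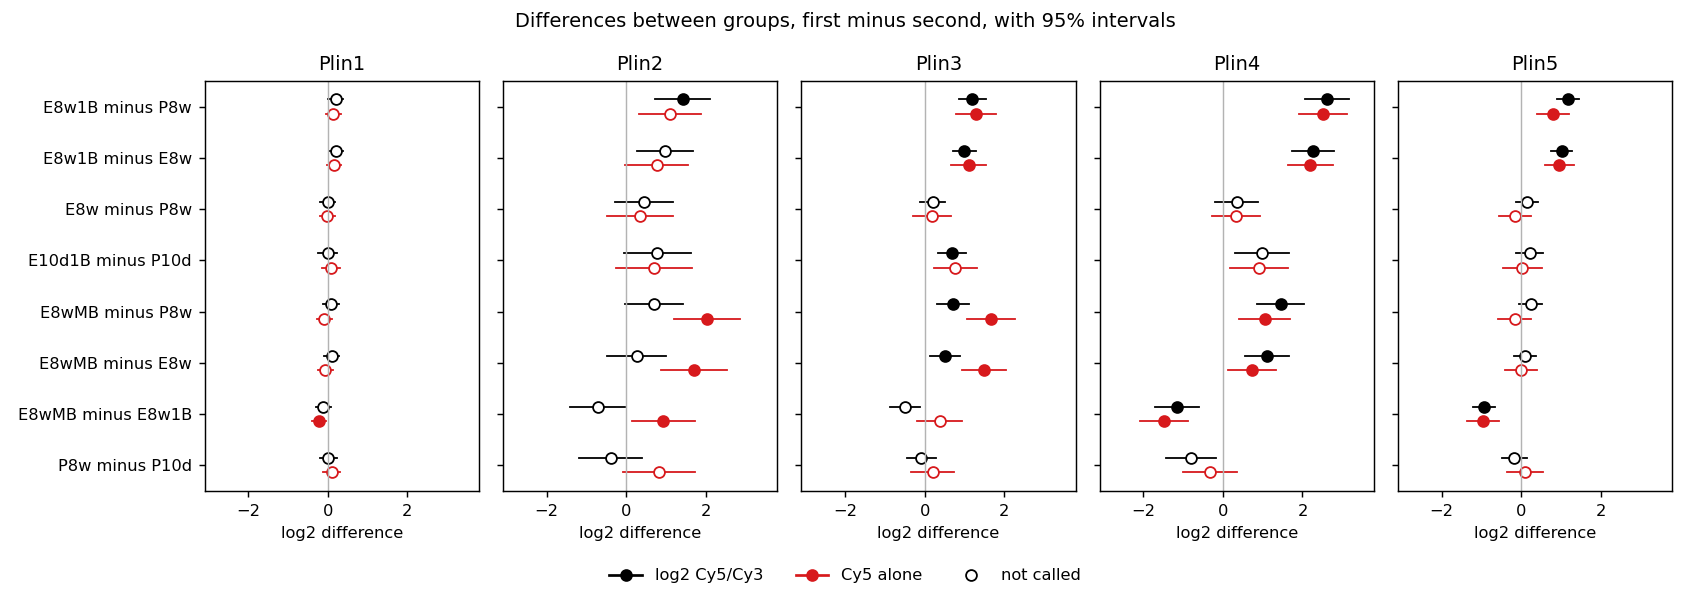
Log2 differences of the 5 genes in 8 comparisons, first group minus second, with 95% intervals, in log2 Cy5/Cy3 (black) and in Cy5 alone (red); filled points were called at an adjusted p under 0.05. Plin4, Plin3 and Plin5 are filled in both measures for E8w1B against P8w and against E8w, and Plin2 takes opposite signs in the 2 measures for E8wMB against E8w1B.

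The order of the group means differed between the ratio and the liver channel. All 5 genes had their highest mean log2 ratio in E8w1B livers. For Plin2, Plin3, Plin4 and Plin5 the E10d1B mean came next, then that of E8wMB, and the lowest mean was that of P8w livers. The Plin4 means were 1.09 ± 0.31 in E8w1B, 0.26 ± 0.74 in E10d1B, -0.07 ± 0.16 in E8wMB, -0.72 ± 0.14 in P10d, -1.18 ± 0.45 in E8w and -1.52 ± 0.64 in P8w livers (SD, n = 5, 3, 4, 3, 5 and 4). Neighbours in that order had overlapping ranges, except that all E8wMB values lay above all P10d values. For Plin5 the single gap was between E8w1B, at 0.72 ± 0.33, and E10d1B, at -0.06 ± 0.35. For Plin3 it was between E8wMB and E8w, and for Plin1 and Plin2 every neighbour overlapped. In Cy5 alone E8w1B came first for Plin1, Plin4 and Plin5, but E8wMB, which had its own scan, came first for Plin2 (14.56 against 13.62 in E8w1B) and Plin3 (12.56 against 12.18), and last for Plin5. There P10d, not P8w, was lowest for Plin1, for Plin2 (11.70 against 12.52 in P8w) and for Plin3 (10.67 against 10.88). P8w was lowest in Cy5 for Plin4 and came second for Plin5, at 12.61. The groups in these orders were not all scanned together.

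Plin2, Plin3, Plin4 and Plin5 varied together over arrays, and Plin1 did not follow them closely. Over the 20 arrays with both values, Plin3 and Plin4 correlated at r = 0.918. Plin4 and Plin5, the neighbours on chromosome 17, correlated at 0.838 (24 arrays), and Plin2 and Plin4 at 0.835 (23 arrays). After subtracting group means these values were 0.623, 0.471 and 0.716. Plin1 correlated with the others at 0.202 to 0.509, and at -0.211 to 0.0797 within groups. Arrays of a group, scan and slide share much, so these are descriptions.

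The genes whose ratio ran most like each perilipin over the arrays, among 12083 or 12084 named genes measured on all arrays used, were of several kinds. Plin2 was closest to 1700123O20Rik (r = 0.91), to Cidec (0.902), which encodes a droplet fusion protein, and to Urgcp (0.899), over 23 arrays. Plin3 was closest to the immediate early factor Egr1 (0.953), the cell cycle inhibitor Cdkn1a (0.952) and the transglutaminase Tgm2 (0.947), over 20 arrays. Plin4 was closest to Pole4, a DNA polymerase epsilon subunit (0.94), Chka, a choline kinase at the head of phosphatidylcholine synthesis (0.939), and Il4ra, the interleukin 4 receptor chain (0.927). Plin5 was closest to Galnt2 (0.874), Gpx3 (0.872) and Arpp19 (0.868), and Plin1 to Aif1l (0.735), Dhrs13 (0.7) and Ski (0.687), each over 24 arrays.

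Likeness in the ratio did not always carry over to the liver channel. In Cy5 alone Cidec and Plin2 correlated at 0.774, Egr1 and Plin3 at 0.879, Tgm2 and Plin3 at 0.945 and Il4ra and Plin4 at 0.89. Pole4 and Plin4 came to 0.483, Arpp19 and Plin5 to 0.151, and the 3 genes named for Plin1 to 0.126 to 0.27. After subtracting group means the 15 named pairs ranged over r of 0.19, for Galnt2 with Plin5, to 0.897, for Cidec with Plin2, and Gpx3 with Plin5 came to 0.476. Cidec log2 ratios were 0.22 to 2.07, with a median of 1.35, in E8w1B livers, against -0.73, -2.91, -2.51 and -1.83 in P8w livers.

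**Figure D5:**
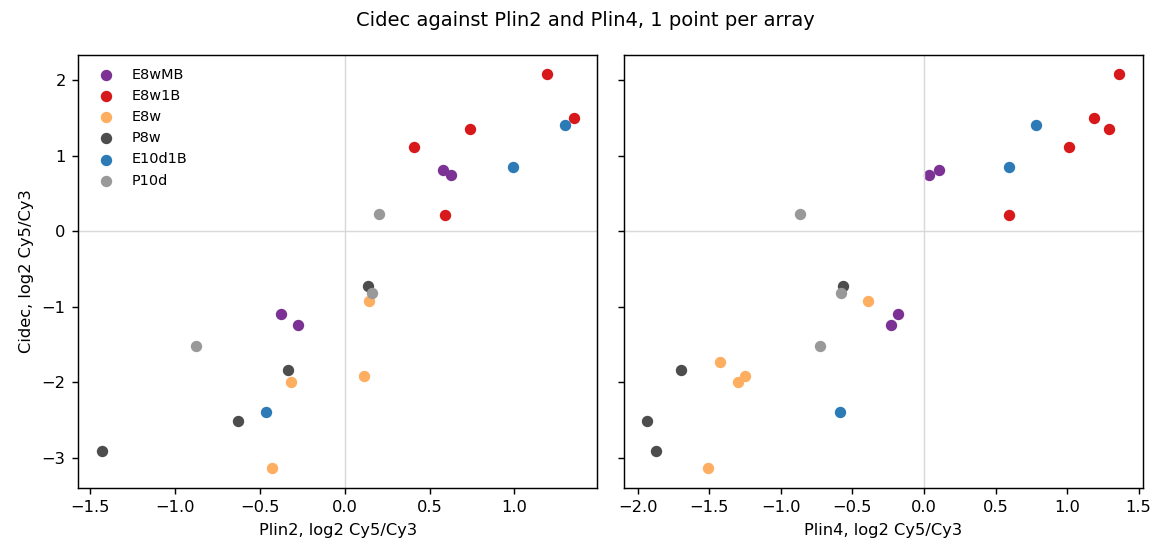
Log2 Cy5/Cy3 of the droplet fusion gene Cidec (vertical axes) against Plin2 and Plin4 (horizontal axes), 1 point per array, coloured by group. Cidec and Plin2 correlate at r = 0.902 over 23 arrays, with the E8w1B arrays at the upper right and most P8w arrays at the lower left.

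Between E8w1B and P8w livers 4 of 13 tested genes of a list of droplet proteins rose and 2 fell, with a median of -0.05 (log2). Among all probes 4.97% were called higher and 6.43% lower in this comparison, which applies to each list set out for it. Cidec rose by 3.25 ± 0.63 (log2, SE; adjusted p = 0.00108) and Vps13c by 0.38 (adjusted p = 0.0318). Cideb, the CIDE member typical of hepatocytes, fell by 0.62 (adjusted p = 0.00421) on the log2 scale, and Ldah, a droplet-associated hydrolase, fell by 0.60 (adjusted p = 0.0048).

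Of 11 tested triglyceride lipases and regulators 2 rose and 3 fell in E8w1B against P8w livers, with a median of -0.06. Those that rose were Pnpla2, which encodes ATGL, by 1.15 ± 0.24 (log2, SE; adjusted p = 0.00365), and Abhd5, which encodes the ATGL activator CGI-58, by 0.61 ± 0.10 (adjusted p = 0.000268). In Cy5 alone Pnpla2 differed by an amount with an adjusted p of 0.0994, and Abhd5 was called (adjusted p = 0.0398). Aadac, a hydrolase of the endoplasmic reticulum, fell by 0.97 (adjusted p = 4.25e-06) on the log2 scale and the carboxylesterase Ces1f fell by 0.82 (adjusted p = 0.00921).

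PPAR receptors and targets, which include known regulators of perilipin transcription, gave 4 rises and 4 falls among 21 tested genes in E8w1B against P8w livers, with a median of 0.05. Fabp4, a fatty acid binding protein of fat cells and macrophages, rose by 1.21 (log2; adjusted p = 3.23e-06). The receptor gene Ppara fell by 1.08 (adjusted p = 0.000402) on the log2 scale, and its classical target Cpt1a, of fatty acid entry into mitochondria, fell by 0.73 (adjusted p = 0.000588). Of 14 tested genes of triglyceride synthesis 1 rose and 3 fell, with a median of -0.11, and the lipogenic factor Srebf1 fell by 2.72 (adjusted p = 8.15e-06).

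Between E8w and P8w livers 0 genes of any of the 4 lists were called. Between E10d1B and P10d livers 7 of 18 PPAR genes fell and 2 rose, where 1.96% of all probes were called lower and 2.94% higher, and Cyp4a14, a fatty acid hydroxylase and PPAR alpha target, fell by 4.62 (log2; adjusted p = 0.000296). There the droplet list gave 1 rise and 1 fall among 14 genes, and the lipase list 0 rises and 1 fall among 12. Between E8wMB and P8w livers 19.7% of all probes were called and 6.31% were called higher. There 2 of 13 droplet genes rose and 0 fell, so the share called in either direction lay near that of all probes. Abhd5 rose by 0.51 (adjusted p = 0.00212) among 8 lipase genes tested.

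Perilipin 1 and perilipin 4 are genes of fat cells, so fat cell markers were read beside them. Of 9 adipocyte markers 2 rose and 0 fell in E8w1B against P8w livers. These were Fabp4 and Cidea, which differed by 1.21 and 0.92 (adjusted p = 3.23e-06 and 0.0472; 0.0707 and 0.243 in Cy5 alone) and which also stand in the lists above. The other 7 were not called. Of these, Adipoq, Lep and Adig, picked after their values were seen, differed by -0.15, 0.07 and 0.09 (log2; adjusted p = 0.626, 0.65 and 0.753) and were dim, with raw Cy5 intensities of 138.5 to 586, 49.7 to 147 and 47 to 219. The rest were Retn, Acvr1c, Lipe and Cfd, and the last 2 reached higher intensities, at 393 to 1743.5 and 57 to 1388. The summed Cy5 intensity of the 9 markers was 4937 to 10967 in E8w1B livers and 3954 to 6980 in P8w livers. Fabp4, 1 of the 2 called markers, was the brightest of the 9, at 1535.5 to 7049.5 over all arrays. Among skeletal muscle markers 0 of 6 were called in this comparison, among stellate cell markers 0 rose and 2 of 8 fell, and among Kupffer cell and macrophage markers 0 rose and 2 of 6 fell. Neutrophil markers gave 2 rises and 0 falls among 6, endothelial markers 1 rise and 2 falls among 6, and hepatocyte markers 2 rises and 0 falls among 7. The part of these cells in the perilipin values was not tested.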

How the data were processed

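The array intensities were read by Agilent Feature Extraction 11.5.1.1, per the submitters' processing notes and the file headers, which gave each spot a median intensity and a median local background in both channels. Per the file headers, the deposited log10 ratios are the same software's, made of its background-subtracted, dye-normalized signals. A further deposited table, in log2, followed the log2 ratio (Cy5 over Cy3) of those signals with a slope of 1.00. Its column medians were -0.0876 to 0.0734, so it is centred near 0, and how it was made is not given in the sources used here.

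Here, spots that the software marked (uneven pixels, or outlying among copies) were dropped (1.34% to 7.64% of an array). The median intensities were corrected with normexp (offset 50) and normalized by loess within each array (R 4.3.3, limma 3.58.1; statmod 1.5.0 for blocks). Single channels were corrected in the same way and quantile-normalized over all arrays. The unit of every test is log2. A probe was kept where Cy5 was well above background on 3 or more arrays. One limma fit of 6 group means over all 24 arrays gave 9 comparisons, each over probes measured on at least 2 arrays of both groups, with Benjamini-Hochberg adjustment over all probes tested and a threshold of 0.05. The fit was tested on simulated data. There were 13 other settings, and each array was left out in turn. Most settings changed 1 choice. The deposited table and the scanner's log ratio replaced background correction and normalization together, and Cy5 alone replaced the ratio and its loess by quantile-normalized intensity. All 24 arrays entered the fit; 0 spots were saturated, and 0 pairs held identical values. Probe accessions were matched to RefSeq names of GRCm38.p6, which named 24375 of 41174 probes, 0 with several symbols, and 16799 stay unnamed here.

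The genes named are the 5 perilipins, the 3 most similar genes of each, and up to 4 members of a list with the lowest adjusted p. Cidec is also plotted and Cyp4a14, Abhd5 and Fabp4 fall under that rule. Cidea, Adipoq, Lep, Adig, Retn, Acvr1c, Lipe and Cfd were named as markers after their values were seen. The members and lists were chosen with earlier results of these data known. Methig1, Ddhd2 and Serpina1b were not analysed here. One further gene that the naming rule would give is not reported here.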

Additional observations from a re-analysis of the deposited data

Results flagged for a closer look

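Plin4 in E8w replicate 1 had a log2 ratio of -0.39, while the nearest other E8w liver had -1.25, a gap of 0.769 of the group's range. It was 1 of 18 groups of 4 or 5 values scanned, and chance flags about 1 in 20.

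The 8-week response of Plin4 to ethanol and binge exceeded the 10-day response by 1.62 on the log2 scale (limma interaction, adjusted p = 0.0415), and that of Plin5 by 0.96 (adjusted p = 0.0146). With 1 array left out, the Plin4 call was lost in 11 of 15 fits and the Plin5 call in 2. Both were lost in Cy5 alone (adjusted p = 0.102 and 0.291), and the 8-week and 10-day arrays were scanned apart.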

How the results depend on the processing

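Of 565 values of single genes under 13 other settings, 510 kept their sign and side of the threshold, 18 lost it, 10 gained it and 27 changed sign. The cause of these changes was not tested. The count of perilipin genes called stayed at 4 for E8w1B against P8w when each array was left out, and was 3 to 4 for E8w1B against E8w. It ranged over 0 to 2 for the interaction, 0 to 2 for E10d1B against P10d, and 1 to 2 for E8wMB against P8w and against E8w. The number of all probes called moved in these fits as well. It was 424 to 977 for the interaction and 758 to 1734 for E10d1B against P10d. For E8wMB it was 4192 to 7137 against P8w and 6699 to 8842 against E8w. With slide as a fixed block no value could be had for the E8wMB comparisons or for P8w against P10d, since these groups share no slide. Plin3 could not be tested without E8wMB replicate 1 or 2. The interaction count of 2 became 0 in Cy5 alone, with the groups compared alone, with median centring and with slide as a fixed block, and 1 with deposited values and with the scanner's log ratio. In that order the number of all probes called went from 735 to 354, 537, 226, 283, 691 and 590. The E10d1B count of 1 became 0 in Cy5 alone, with deposited values, the groups compared alone, median centring and the scanner's log ratio. In that order the number of all probes called went from 1731 to 416, 1063, 1743, 595 and 1004. The E8wMB against E8w count became 1 with median centring, where 11609 probes were called against 8944 in the main fit. In Cy5 alone the E8wMB counts became 3 against E8w, 3 against P8w and 4 against E8w1B. In that order 17163 of 34985, 16364 of 34784 and 16960 of 35194 probes were called there.

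Equal replicate numbers were not taken as pairs. Deviations of same-numbered arrays correlated at -0.246 to 0.36 and in 0 comparisons were all above 0.1. They were all above 0 for E8w1B with E8w (0.0655 to 0.281) and E10d1B with P10d (0.0755 to 0.254), where some pairs shared a slide. With 3 to 5 pairs per comparison these values cannot decide whether samples were paired. With the replicate block the interaction count was 1, Plin4 losing its call (1.64, adjusted p = 0.0624), and no other count of calls changed. For the interaction 779 probes were called with that block, against 735 in the main fit.

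Sign changes were mostly of values near 0. For Plin1, E10d1B minus P10d was 0.070 in Cy5 alone, 0.0205 with deposited values and the scanner's log ratio and 0.021 with median centring. E8w minus P8w was 0.12 with deposited values and the scanner's log ratio, 0.013 with median centring and 0.0202 with the replicate block. P8w minus P10d was -0.015 with deposited values and the scanner's log ratio, -0.0104 with median centring and -0.00872 with no background correction. Plin1 in Cy5 alone was -0.0665 for E8wMB minus E8w and -0.0869 for E8wMB minus P8w. Leaving out 1 array, these Plin1 values ranged over -0.0892 to 0.0513, -0.0712 to 0.0374 and -0.0744 to 0.0754 for E10d1B minus P10d, E8w minus P8w and P8w minus P10d. In Cy5 alone E8wMB minus E8w1B was 0.93 for Plin2 and 0.38 for Plin3, and P8w minus P10d was 0.82 for Plin2, 0.21 for Plin3 and 0.0833 for Plin5. Plin5 in Cy5 alone was -0.16 for E8w minus P8w, -0.17 for E8wMB minus P8w and -0.00325 for E8wMB minus E8w. With median centring Plin5 was -0.00444 for E8wMB minus E8w and 0.016 for P8w minus P10d. P8w minus P10d for Plin3 was 0.059 with deposited values, 0.0525 with median centring and 0.030 with marked spots kept.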
